A study of Mus musculus with 12 samples.

Results

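The genes described here encode the proteins of the cytosolic ribosome. They were taken from the deposited expression table by symbol, as every row named Rps or Rpl followed by a number and at most the letter a or x, together with Rplp0, Rplp1, Rplp2 and Rpsa. This gave 76 of 35976 rows, 30 for the small subunit and 46 for the large subunit, and no measured value entered the choice. All 76 were in the set of 15341 genes tested, since the lowest value of any of them in any library was 11809 normalised counts.

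RNA was taken from mouse embryonic stem cell (mESC) lines and sequenced as read pairs with a kit that keeps the strand. How messenger RNA was selected is not given in the sources used here. Every group, the wild type included, came from blastocysts carrying the TET2 fl/fl alleles, so no group is free of that background. WT is the line without an edit. KO is a line grown from a single sorted cell after CRISPR editing of Proser1, which encodes a partner of the TET dioxygenases, with a guide in exon 1. KO+Rescue is that KO line with an inserted FLAG-tagged Proser1 coding sequence carried by PiggyBac, selected with blasticidin and again grown from a single clone. The genotype of each line therefore cannot be told apart from its clone. The mESC state was serum medium with LIF and inhibitors of the kinases MEK and GSK3, without feeder cells, and day 2 was 48 hours in N2B27, a serum-free medium for which no inhibitors are listed. Each of the 6 groups (3 genotypes at 2 stages) had 2 libraries, named A and B after the column headers. The headers write 1 code for the KO line and that code with R for the line read as KO+Rescue, and no label states this reading. The titles number the libraries as biological replicates but say nothing of separate cultures, and every p-value is then set against the spread of these libraries alone, which may be technical.

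The ribosome is built from ribosomal RNA and about as many different proteins as there are genes in this set. The small subunit (Rps proteins) binds the messenger RNA and decodes it, and the large subunit (Rpl proteins) joins amino acids and passes the growing chain through an exit tunnel. Most of the proteins are present in 1 copy per ribosome. Their messenger RNAs are short, very abundant and begin with a run of pyrimidines (the terminal oligopyrimidine or TOP motif), through which the kinase mTOR and the protein LARP1 set their translation and stability. Embryonic stem cells divide fast and are known for a high output of these messages.

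Proser1 was measured at 889 and 550 normalised counts in WT mESC libraries A and B and at 576 and 502 in KO mESC. At day 2 it was at 829 and 685 in WT and at 872 and 1067 in KO. The columns read as KO+Rescue held 2828 and 3090 in mESC and 3041 and 2994 at day 2, above all the others. Proser1 messenger was not called different between KO and WT at either stage (adjusted p = 0.215 in mESC and 0.368 at day 2, limma), so this level separates the rescue columns but does not check the KO labels. Library totals ran from 38634668 to 66450803 assigned read pairs. Naive pluripotency markers summed to 3331 to 3842 CPM (counts scaled to a common library total) in the mESC libraries and 1354 to 1990 at day 2. None of the 10 was at 0. The list includes Pou5f1 and Sox2, and Pou5f1 was the largest part of the sum.

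The 76 genes took between 12.4% and 23.1% of all assigned reads in a library. In mESC the share was 12.7% and 15.8% in WT libraries A and B. The KO libraries read 17.3% and 19.5%. The KO+Rescue libraries read 18.2% and 23.1%. The WT libraries were the lowest, and KO and KO+Rescue overlapped. By day 2 the WT libraries were at 12.4% and 15.7%, each KO library at 16.4%, and the KO+Rescue libraries at 17.3% and 19.0%. The order of the 3 genotypes was the same, here without overlap between any of them. Exact 95% binomial intervals reach at most 0.0133 percentage points to either side and cover counting error only, and in 5 of 6 groups the distance between libraries A and B is far larger than the counting error. The KO libraries at day 2 differ by about as much as their intervals are wide.

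**Figure D1:**
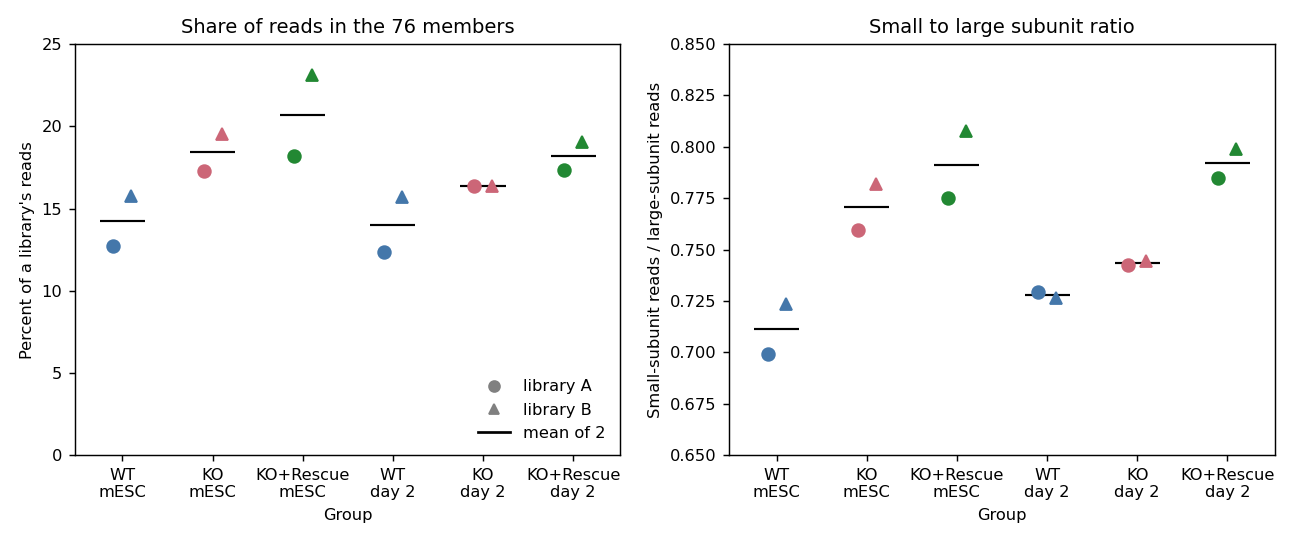
Left, percent of each library's assigned reads in the 76 ribosomal protein genes, by group, with the axis from 0. Right, reads of small-subunit genes divided by reads of large-subunit genes, on an axis that does not start at 0. Circles are library A, triangles library B and bars the mean of 2. The 4 WT libraries lie between 12.4% and 15.8% and between 0.699 and 0.729, below all KO and KO+Rescue libraries in the left and in the right panel.

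Over the 2 stages, the share was 14.1% ± 1.86 (SD, n = 4) in WT and 17.4% ± 1.5 (SD, n = 4) in KO, a difference of 3.26 percentage points with an exact permutation p of 0.0286 (two-sided), the smallest that 4 against 4 libraries can give. The headers repeat the letters at both stages of a line, and the methods describe 2 replicate samples of each line followed through the stages, so the 4 libraries of a genotype may come from 2 samples. With each letter averaged over the stages, 2 against 2, KO and KO+Rescue were still above WT by 3.26 and 5.29 points, with exact permutation p = 0.333 each, the smallest that number allows. KO+Rescue stood at 19.4% ± 2.57 (SD, n = 4), 5.29 points above WT with the same exact p of 0.0286. KO+Rescue and KO overlapped and differed by 2.04 points (exact permutation p = 0.229, n = 4 each), or by 0.801 to 2.76 with 1 library left out. Mean shares by stage were 17.8% ± 3.52 in mESC and 16.2% ± 2.21 at day 2 (SD, n = 6 each). Their difference was not larger than that spread, which includes the genotypes (exact permutation p = 0.368). That difference of -1.58 points ran from -2.59 to -0.506 with 1 library left out. No test paired by line and letter was run on the share. For every line and letter the day 2 share was below the mESC share. The fall was least in WT library B (15.79% to 15.68%) and most in KO+Rescue library B (23.13% to 19.04%). After adjustment over the 8 tests of share and ratio the p for KO and for KO+Rescue against WT became 0.0571, which misses 0.05 (exact permutation tests, n = 4). Within a stage, an exact permutation test of 2 against 2 libraries cannot go below p = 0.333. There KO was 4.17 points above WT in mESC and 2.35 points above it at day 2, and KO+Rescue was 6.42 and 4.17 points above WT. Library B had the higher share in 6 of 6 groups, in KO at day 2 by less than the printed digits show, and the median member was 0.49, 0.33 and 0.60 higher (log2) in B than in A for the WT, KO and KO+Rescue mESC libraries, and 0.48, 0.00075 and 0.16 higher at day 2. In the 3 mESC groups and in WT at day 2 these gaps are of the size of some gaps between genotypes.

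The balance of the subunits followed the same order of genotypes. In WT mESC the ratio of small to large subunit reads was 0.699 in library A and 0.724 in library B, while the KO libraries had 0.759 and 0.782 and the KO+Rescue libraries 0.775 and 0.808. The day 2 ratios were 0.729 and 0.726 for WT, 0.742 and 0.744 for KO, and 0.785 and 0.799 for KO+Rescue. The WT libraries were below the others at each stage, and KO and KO+Rescue overlapped only in mESC. Over the stages WT had a ratio of 0.720 ± 0.0139, KO one of 0.757 ± 0.0182 and KO+Rescue one of 0.792 ± 0.0146 (SD, n = 4 each). KO exceeded WT by 0.0374 and KO+Rescue exceeded WT by 0.0720 (exact permutation p = 0.0286 for each, n = 4, adjusted 0.0571 over the 8 tests), and with the letters averaged over the stages the exact permutation p was 0.333. KO+Rescue was 0.0346 above KO, with an exact permutation p of 0.0571 (n = 4). Stage made a difference of -0.00340 with an exact permutation p of 0.866 (n = 6). The lines went different ways in this mean. Day 2 minus mESC was 0.0165 in WT and -0.0273 in KO, each without overlap, and 0.00055 in KO+Rescue. With each gene weighted equally, the mean log2 of small minus large subunit genes was 0.0589 higher in KO than in WT, and that difference had an exact permutation p of 0.0571 (n = 4).

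KO against WT asks what loss of Proser1 function goes with. In mESC none of the 76 genes passed an adjusted p of 0.05 in limma, while 44 had an unadjusted p under 0.05, edgeR called 0 and DESeq2 called 22, all higher in KO. Over all tested genes limma called 9.48% in this comparison, edgeR 9.35% and DESeq2 13.2%. All 76 fitted changes lay above 0, from 0.17 to 0.93 on the log2 scale with a median of 0.61, beside a median of -0.04 over all tested genes. With 1 library left out the median ran from 0.37 to 0.85, and with equal library totals it was 0.40 beside -0.25 over all genes. At equal totals the smallest member changes, such as that of Rpl4, fell below 0, so the shared direction belongs to the deposited scale. The 2 KO libraries were above the 2 WT libraries for 74 of the 76, against 27.3% of all tested genes. Rps21, a small protein of the subunit's solvent side, had the largest fitted change of the small subunit. It was at 30186 and 45379 normalised counts in WT and at 57024 and 87253 in KO, a log2 change of 0.93 ± 0.30 (SE, adjusted p = 0.0678, limma). The groups did not overlap, yet the gap between the KO libraries was wider than that between KO library A and WT library B. Rpl41, the shortest member, had the largest fitted change of the large subunit at 0.83, and Rpl4, one of the longest, the smallest at 0.17. Without WT mESC library B the count of called members was 21, and without KO+Rescue mESC library A or B or WT day 2 library A or B it was between 1 and 4. Mitochondrially encoded genes took 0.531% to 0.577% of reads in WT mESC and 0.370% to 0.389% in KO mESC. Primitive endoderm markers summed to 24.1 to 38.4 and 13.5 to 16.1 CPM in the same order. Over the 12 libraries most of that marker sum lay in Lamb1, with a mean of 2082 normalised counts, and Dab2 came next at 61.9. The part of these genes was not tested.

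At day 2 the same comparison gave 0 called members in limma, 3 at an unadjusted p under 0.05, and 0 in edgeR and DESeq2. Of all tested genes limma called 5.21%, edgeR 6.8% and DESeq2 7.24%. The fitted changes ran from 0.11 to 0.73 with a median of 0.37 (0.12 to 0.59 with 1 library left out), beside 0.02 over all tested genes, and the groups did not overlap for 52 of the 76, KO being higher each time (23.2% of all tested genes). Rps15a had the largest fitted change at 0.73 (adjusted p = 0.243, limma) and Rps2, at the entry of the messenger RNA channel, the smallest at 0.11. The difference of the KO effect between stages was itself tested. No member passed (0 in limma, edgeR and DESeq2, 0 at an unadjusted p under 0.05, with 1.13%, 1.39% and 2.82% of all tested genes called by these tools in turn), and the median difference was -0.23, which ran from -0.47 to 0.03 with 1 library left out and so turned its sign. Without WT day 2 library B, 1 member was called at day 2. Fibroblast and feeder markers summed to 137 to 157 CPM in WT at day 2, 164 to 168 in KO and 182 to 191 in KO+Rescue. Naive pluripotency markers summed to 1354 to 1595, 1845 to 1990 and 1580 to 1679 CPM in the same order. Within each list the genes did not move together from WT to KO. Of the fibroblast list, Acta2 and Tagln were called higher (2.94 and 1.31), while Fn1 and Col1a1 had uncalled changes of -0.55 and -1.23 (limma). Of the naive list, Nanog was called higher (1.30), and Dppa3, Esrrb and Klf2 were called lower (-2.15, -1.54 and -1.08, limma). The largest part of the naive sum was Pou5f1, at a mean of 90919 normalised counts over the 12 libraries, with Nanog next at 20636. Pou5f1 had an uncalled change of 0.60 (limma), so the higher sum in KO does not describe the list as a whole. The part of these markers in the day 2 differences was not tested.

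KO+Rescue against WT in mESC gave the largest set of calls. Here 50 of 76 members were called higher and 0 lower in limma, 23 of 30 from the small and 27 of 46 from the large subunit, against 9.15% of all tested genes called higher and 9.04% lower. Without the filter on low values the count was 8 (5.98% of all genes), and it was 0 (2.26%) when the other 4 groups were kept out of the model. edgeR called 55 members, where it called 18.3% of all tested genes in either direction, and DESeq2 59, where it called 20.7%. The median fitted change was 0.92, which is 1.89-fold, beside -0.06 over all tested genes, and all 76 changes were above 0, from 0.13 to 1.40. In 75 of 76 the libraries of the groups did not overlap (26.9% of all tested genes higher without overlap). KO+Rescue carries the same edit as KO, so this comparison spans the edit, the inserted Proser1 and the clones. With libraries scaled to equal totals the median of all genes moved to -0.38 and that of the members to 0.59. Again 50 members were called, against 4.38% of all tested genes called higher. The smallest member changes then fell below 0, so a change above 0 in all 76 holds on the deposited scale only.

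Rps12, a small-subunit protein near the beak of the subunit, showed the largest change. In mESC its normalised counts were 134946 and 223374 for WT libraries A and B, 279222 and 387265 for KO, and 331762 and 629618 for KO+Rescue. Day 2 values were 120736 and 183735 for WT, 205703 and 235772 for KO, and 279295 and 331656 for KO+Rescue. KO and KO+Rescue were above WT without overlap at each stage, and KO+Rescue library B in mESC was the highest of all. The change from WT to KO+Rescue in mESC was 1.40 ± 0.35 (SE, 2.63-fold, adjusted p = 0.0216, limma). Rps12 lies on chromosome 10 at 23785183 to 23787383 (GRCm38). Rps21 rose by 1.32 ± 0.30 (adjusted p = 0.0154), Rps20 by 1.01 ± 0.23 (adjusted p = 0.0172) and Rps28 by 0.91 ± 0.23 (adjusted p = 0.0211), all by limma.

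Among large-subunit genes, Rplp2 had the smallest adjusted p. Its protein is part of the P stalk, the arm that recruits the GTPases of translation. It was at 38264 and 50670 normalised counts in WT mESC and 71959 and 99772 in KO+Rescue, a change of 0.94 ± 0.20 (adjusted p = 0.0131, limma). Rpl37, Rpl37a and Rpl22, an RNA-binding protein of the large subunit, followed with changes of 1.00, 0.97 and 1.22. Rpl34 had the largest change of the subunit at 1.27 (adjusted p = 0.0221, limma), from 20133 and 31284 in WT to 46190 and 79496 in KO+Rescue. For Rpl34 as for Rplp2, the lower KO+Rescue library was above the higher WT library.

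Grouped by role, each listed site held calls in mESC, where 50 of the 76 members and 9.15% of all tested genes were called higher. The roles hold few genes each, and no difference between roles was tested. Of the 4 P stalk genes, Rplp1, Rplp2 and Rpl12 rose by 0.75, 0.94 and 1.08, while Rplp0, the base of the stalk, had a fitted change of 0.40 and was not called. Rpl5 and Rpl11, which travel with the 5S ribosomal RNA and bind the p53 regulator MDM2 when assembly fails, rose by 1.00 and 0.84. Of 7 genes around the tunnel exit 3 were called, with a median over the 7 of 0.99. Of the 3 genes at the messenger RNA entry 2 were called and Rps2, at 0.24, was not. Of the 5 genes at the platform where it leaves 2 were called, with a median of 0.69. Rps27a, made as a fusion with ubiquitin, rose by 1.07. Of the 4 X-linked members, Rpl10, Rpl36a and Rpl39 rose by 0.88, 0.76 and 0.99 and Rps4x had a fitted change of 0.26. Of 10 members whose human counterparts are mutated in Diamond-Blackfan anaemia, a failure of red cell formation, 8 were called, among them Rps19 at 1.13, and Rps26 was lowest, with a fitted change of 0.33 and no call.

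The count of 50 rested on particular libraries. Without WT mESC library A, the lower of its pair, or without KO+Rescue mESC library B, the highest of all, it was 0. Leaving out KO day 2 library A or B gave 23 each, KO+Rescue day 2 library A 24 and library B 25, through the estimate of the spread that all groups share. The median change stayed above 0 in all 12 of these fits, between 0.61 and 1.23. In the same libraries, other genes with a coding length under 500 bases, 977 in number, had a median change of 0.48, and 11953 other genes of 500 bases or more had a median of -0.13. Primitive endoderm markers summed to 24.1 to 38.4 CPM in WT mESC and 10.8 to 13.5 in KO+Rescue. Of the 8 in that list, 4 and 6 were under a mean of 10. Over the 12 libraries most of the sum lay in Lamb1 (mean 2082 normalised counts, with Dab2 next at 61.9). Formative and neural markers summed to 313 to 486 CPM in WT mESC and 191 to 268 in KO+Rescue. Fibroblast and feeder markers overlapped, at 185 to 307 and 227 to 288, with 1 and 2 of 11 at 0. The part of length or of these cells in the members' change was not tested. In bulk RNA, fewer cells of a type and less RNA per cell cannot be told apart.

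**Figure D2:**
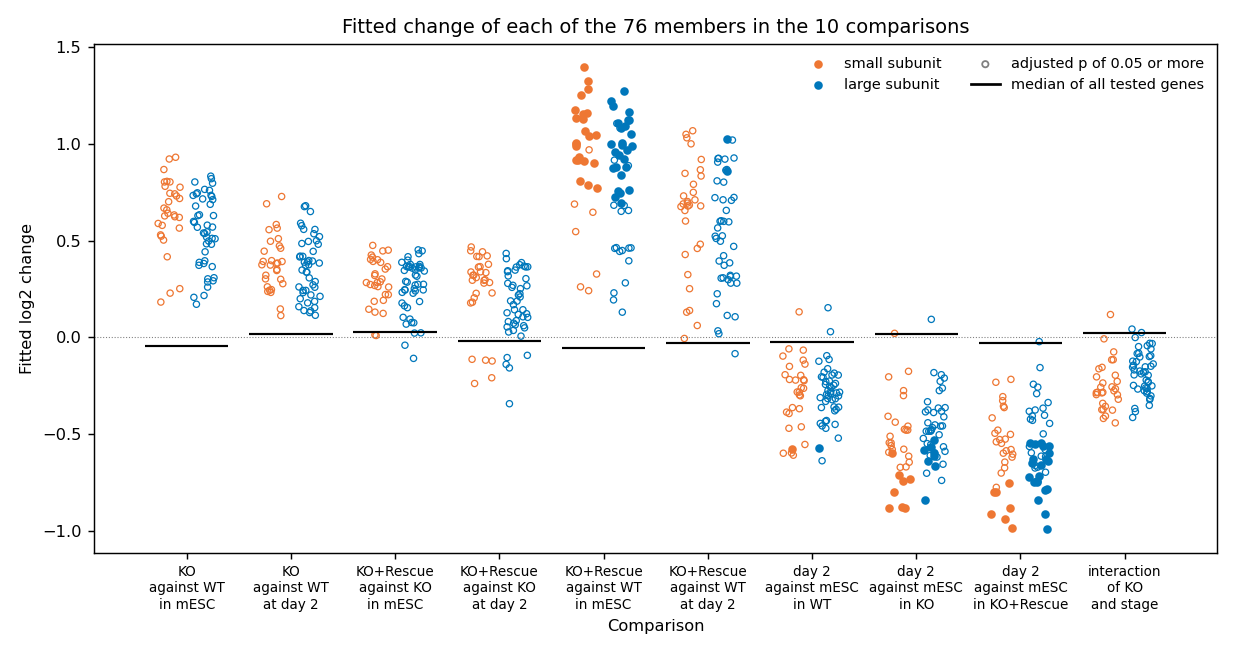
Fitted log2 change of each of the 76 genes in the 10 comparisons, small subunit in orange and large subunit in blue, filled where the adjusted p was under 0.05 (limma). Black bars are the median of all 15341 tested genes. In the comparisons with WT in mESC every point is above 0 on this deposited scale. The filled points there number 0 for KO and 50 for KO+Rescue.

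At day 2, KO+Rescue against WT gave 2 called members, higher, where 3.9% of all tested genes were called higher and 7.2% lower. The median change was 0.60 (0.35 to 0.83 with 1 library left out), from -0.08 to 1.07 over the members, beside -0.03 over all tested genes, and 67 of 76 members did not overlap, KO+Rescue being higher each time (26.6% of all tested genes). The 2 called genes were Rpl22, at 26621 and 43114 normalised counts in WT and 66569 and 71414 in KO+Rescue (1.03 ± 0.29, adjusted p = 0.0382), and Rpl27a, at 53161 and 78256 in WT and 108406 and 126380 in KO+Rescue (0.86 ± 0.26, adjusted p = 0.0491), both in limma. Neither gene's groups overlapped. The number depended on the method. edgeR called 14 and DESeq2 20, all higher, where they called 12.5% and 14.3% of all tested genes in either direction. Equal library totals gave 13, all higher, against 2.4% of all tested genes. Without WT day 2 library B it was 34. It was 0 without WT day 2 library A and without each of the KO and KO+Rescue day 2 libraries, 1 without either KO mESC library, and 9 without any of the WT or KO+Rescue mESC libraries. The other genes with a coding length under 500 bases had a median of 0.26 here. Rps24 had the largest fitted change of the small subunit at 1.07 (adjusted p = 0.0653), and Rpl29 the lowest of all at -0.08.

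KO+Rescue against KO asks whether putting Proser1 back moves these genes back. None was called at either stage in limma, edgeR or DESeq2, and none had an unadjusted p under 0.05 in limma, which called 1.51% of all tested genes in mESC and 1.83% at day 2. edgeR called 1.04% and 2.31% of all tested genes, and DESeq2 2.11% and 4.5%. The median fitted change was 0.28 in mESC, with 74 of 76 above 0, and 0.24 at day 2, with 66 of 76 above 0. With 1 library left out these medians ran from -0.02 to 0.59, a turn of sign, and from 0.15 to 0.30. In mESC the groups overlapped for all but 1 member, which was lower in KO+Rescue (23.4% of all tested genes were higher and 22.1% lower without overlap). At day 2 they did not overlap for 56, of which KO+Rescue was higher for 51 and lower for 5, where 28.7% of all tested genes were higher and 32.2% lower without overlap. WT values therefore lay farther from KO+Rescue than from KO in the fitted medians, 0.92 against 0.61 in mESC and 0.60 against 0.37 at day 2. These comparisons share libraries, so their values are given side by side only. Rps12 had fitted changes of 0.47 from KO to KO+Rescue at each stage, the largest of the small subunit.

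Day 2 against mESC, the exit from the stem cell state, gave lower levels for members in each genotype on the scale of the deposited values. In WT 2 were called lower (25.3% of all tested genes lower), Rps29 and Rpl7. In KO 16 were called lower (28.7% of all tested genes), 8 of each subunit. In KO+Rescue 28 were called lower (29.1% of all tested genes), 7 from the small and 21 from the large subunit. None was called higher, where 26.6%, 31.4% and 29.2% of all tested genes were in WT, KO and KO+Rescue. As shares of 76, the counts in WT and KO are below that of all tested genes called lower. Median changes were -0.28, -0.52 and -0.59, or -0.53 to -0.05, -0.68 to -0.35 and -0.90 to -0.29 with 1 library left out, and 12, 72 and 67 members were lower without overlap (34.7%, 41.8% and 41.5% of all tested genes). edgeR called 3, 28 and 32 members (53.6%, 60.3% and 57.1% of all tested genes in either direction) and DESeq2 3, 31 and 46 (42.4%, 48.8% and 48.1%). With line and letter as a block, the fit for samples followed through both stages, 26, 63 and 66 members were called, all lower, where limma called 64.6%, 70.3% and 69.4% of all tested genes in either direction.

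Rps29, a small zinc-binding protein of the small subunit, fell in each genotype. WT mESC held 19554 and 19598 normalised counts and WT day 2 held 13233 and 12994. In KO it went from 21238 and 32128 to 14090 and 17522, and in KO+Rescue from 25406 and 32164 to 17641 and 11809. No day 2 library reached the mESC libraries of its genotype. The changes were -0.58 ± 0.22 (adjusted p = 0.0419), -0.73 ± 0.22 (adjusted p = 0.0116) and -0.99 ± 0.22 (adjusted p = 0.00192), all by limma. Rpl7, a large-subunit RNA-binding protein, fell by 0.57 in WT and by 0.84 in KO (adjusted p = 0.0476 and 0.00609, limma). In KO+Rescue it was called lower as well. It was at 137435 and 182953 in WT mESC and 93905 and 120717 at day 2, and at 197694 and 220026 in KO mESC and 125733 and 107648 at day 2. Rpl37 had the largest change of the large subunit in KO+Rescue, from 52748 and 83154 to 33282 and 33274, at -0.99 ± 0.23 (adjusted p = 0.0023).

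The stage result depends on the scale. With equal library totals the median member change was -0.05 for WT, -0.18 for KO and -0.22 for KO+Rescue, while the median of all genes was 0.21, 0.35 and 0.34. Calls then numbered 1 higher and 0 lower in WT (32.4% and 15.5% of all tested genes), 2 higher and 3 lower in KO (40.7% and 16.5%), and 1 higher and 10 lower in KO+Rescue (40.2% and 16.3%). Mitochondrially encoded genes took 0.347% to 0.577% of reads in mESC and 0.135% to 0.207% at day 2, and other genes with a coding length under 500 bases had median stage changes of -0.17 for WT, -0.34 for KO and -0.44 for KO+Rescue. Their part was not tested. Without KO mESC library B the count in KO was 0, without KO day 2 library A or B it was 1, without KO+Rescue day 2 library A or B 7 and without KO+Rescue mESC library B 25. The count in KO+Rescue was 3 without its mESC library B, 54 without its mESC library A, 6 without either of its day 2 libraries and 18 without either KO day 2 library. In WT it was 16 without its day 2 library B, and 0 or 1 without WT mESC library B, WT day 2 library A or any KO mESC, KO day 2 or KO+Rescue day 2 library.

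On the deposited scale, the 76 genes moved along one axis over the 12 libraries but not by equal amounts. KO+Rescue mESC library B held the highest value of 73 members and WT day 2 library A the lowest of 69. Each read stood for 1.78 normalised counts in the former (38634668 reads in all) and for 0.605 in the latter (66450803 reads). The deposited values summed over all genes were therefore also higher in the former. Slopes and ratios of highest to lowest library were not computed with equal library totals. The correlation of each gene with the mean of the others, on the log2 scale over 12 libraries that share these groups, had a median of 0.976 and a minimum of 0.516. The slope of a gene on the mean of all 76 describes how steeply it followed. It ran from 0.17 to 1.62 with a median of 1.06, and was 1.08 at the median of the small and 1.00 at the median of the large subunit. The ratio of a member's highest to its lowest library ran from 1.31 to 6.97.

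**Figure D3:**
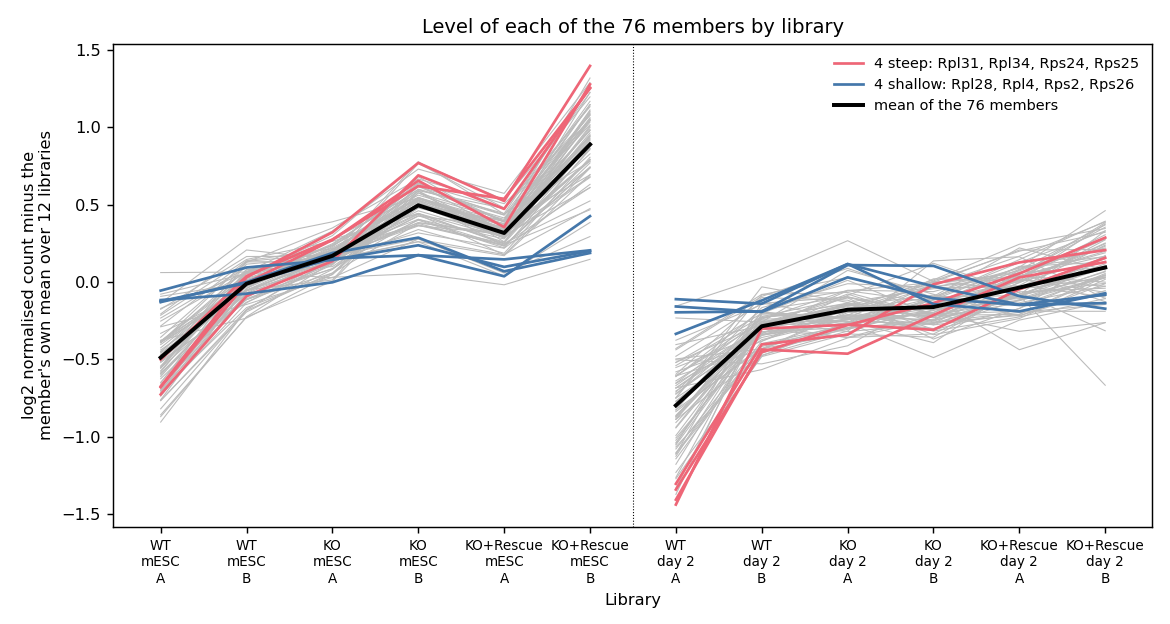
Level of each of the 76 genes in each of the 12 libraries, as log2 normalised count minus the gene's own mean. Grey lines are single genes, black their mean, red 4 of the steepest and blue 4 of the shallowest. The red lines peak in KO+Rescue mESC library B and dip in WT day 2 library A. On this scale the blue ones, among them Rps2 with a highest to lowest ratio of 1.31, stay nearly flat.

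Rps25, a small-subunit protein needed for initiation at some viral internal entry sites, was the steepest. Its mESC values were 62109 and 101188 normalised counts for WT, 123784 and 168897 for KO, and 142420 and 260704 for KO+Rescue. Its day 2 values were 37393 and 73243 for WT, 71888 and 85476 for KO, and 101127 and 108301 for KO+Rescue. On the deposited scale its lowest and highest libraries differ 6.97-fold. Rps2 was nearly level on the deposited scale, while its share of a library's reads was lowest in KO+Rescue mESC library B. Its mESC libraries had 160007 and 173513 normalised counts for WT, 193811 and 196589 for KO, and 192952 and 200954 for KO+Rescue. Its day 2 libraries had 161493 and 158244 for WT, 189012 and 157971 for KO, and 152882 and 165778 for KO+Rescue, where the genotypes overlap. Of the 76, 10 had a slope under 0.6, among them Rps2, Rpl4, Rps26, Rpl28, Rps4x, Rpl23, Rplp0, Rpl29 and Rpl8, and 9 had a slope over 1.4, among them Rps25, Rps24, Rpl31, Rpl34, Rps15a, Rps12, Rps21 and Rps27.

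Shallow members tended to be long. Coding length ran from 75 bases (Rpl41) to 1257 bases (Rpl4) with a median of 454.5. The median slope was 1.11 for the 9 members under 300 bases, 1.21 for 16 from 300 to under 400, 1.09 for 22 from 400 to under 500, 0.99 for 16 from 500 to under 700 and 0.77 for 13 of 700 bases or more. Over the 76 genes, Spearman's rho between slope and coding length was -0.39 and Pearson's r was -0.42, given as a description of genes that share the same libraries. Some short genes were shallow too, such as Rps26 (345 bases, slope 0.32) and Rpl28 (411 bases, slope 0.32).

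**Figure D4:**
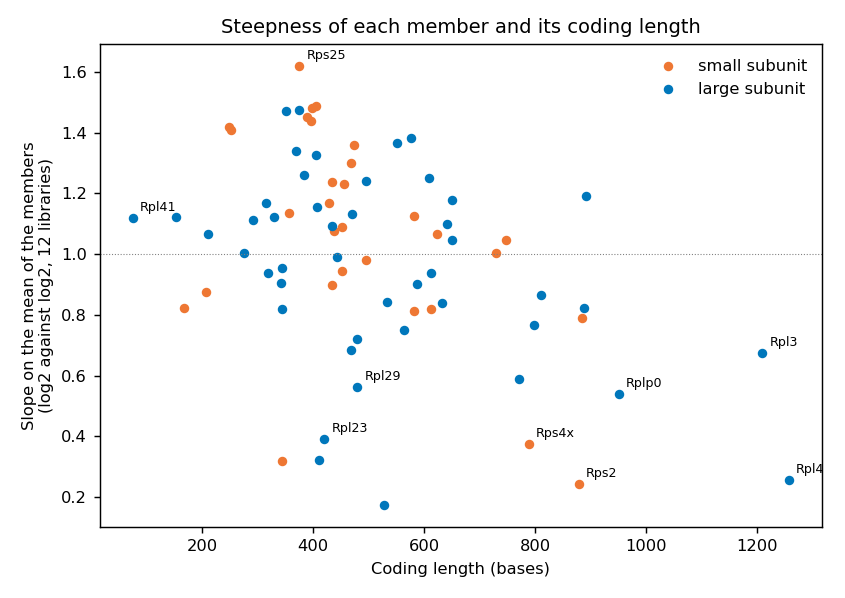
Slope of each of the 76 genes on the mean of all of them (log2 against log2 over 12 libraries) against coding length in bases, small subunit in orange and large subunit in blue. The dotted line marks a slope of 1. Genes of 700 bases or more have a median slope of 0.77, and Rps26 and Rpl28 lie low at 345 and 411 bases.

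The bases around the annotated start were read for members on each side, because the TOP motif of these messages begins there. RefSeq promoter sequences (GRCm38.p6) were at hand for 56 of the 76. Shown are the 4 steepest and the 4 shallowest members with a single start among these promoter sequences. Each window runs from 10 bases before that start to 20 bases after it. Capitals mark any run of at least 5 pyrimidines that opens with C. The Rps12 window lies inside the gene span given earlier, so its start here is not the outer end of that span.
Steep, Rps25 (chr9:44407704-44407733, plus strand): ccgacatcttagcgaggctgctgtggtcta
Steep, Rpl31 (chr1:39367841-39367870, plus strand): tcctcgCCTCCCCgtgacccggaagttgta
Steep, Rps15a (chr7:118116128-118116157, minus strand): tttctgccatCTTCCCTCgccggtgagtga
Steep, Rps12 (chr10:23787190-23787219, minus strand): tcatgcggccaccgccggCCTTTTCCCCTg
Shallow, Rpl28 (chr7:4792955-4792984, plus strand): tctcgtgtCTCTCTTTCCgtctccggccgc
Shallow, Rps26 (chr10:128626487-128626516, minus strand): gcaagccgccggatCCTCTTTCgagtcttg
Shallow, Rpl4 (chr9:64173377-64173406, plus strand): tttcctgtgggagcagccgggtagagagga
Shallow, Rps2 (chr17:24720053-24720082, plus strand): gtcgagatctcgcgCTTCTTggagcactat
Runs stand in 3 of the 4 steep and 3 of the 4 shallow windows. Such a run was found in 37 of the 56 members (66.1%), against 39.6% of 27025 genes with the same window. Members with a run had a median slope of 1.09 and the 19 without it one of 1.08. The motif CCGGAAG, the core bound by ETS factors, was present on either strand in 23 of 56 promoters of 250 bases before to 50 after the start (41.1%, against 9.93% of all genes). AAGATGG, the core bound by YY1, was present in 9 (16.1%, against 7.28%). These are matches of letters, and an absent match says only that the letters are not in the window.

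To ask which members changed against the rest of the ribosome, the summed value of the 76 was set equal in every library and the fit repeated. Between KO+Rescue and WT in mESC, 7 members were then higher and 14 lower. On this scale 0.411% of all tested genes were higher and 52.2% lower, so the losses are fewer than the background. Rps12 had gained most, at 0.53 ± 0.13 relative to the sum (adjusted p = 0.0159, limma), and Rps21, Rps25, Rps15a, Rpl22 and Rpl41 were among the others. Rpl4 had lost most, at -0.73 ± 0.20 (adjusted p = 0.019), and among the others were Rpl28, Rpl23, Rps2, Rps4x, Rps26, Rplp0, Rpl29, Rpl8, Rpl3, Rpl23a, Rpl21 and Rpl7 from -0.67 to -0.40. Of the gains 5 of 7 were in the small subunit, and of the losses 11 of 14 in the large subunit. The 76 genes hold 30 of the small and 46 of the large subunit, and this split was not tested. At day 2, Rps12 was again higher (0.45 ± 0.13, adjusted p = 0.0469) and Rpl29, Rpl23a and Rplp0 lower, at -0.67, -0.56 and -0.41 (0.222% of all tested genes higher and 9.16% lower). No member was called on this scale between KO and WT in limma (6.23% of all tested genes in mESC and 1.87% at day 2) or between KO+Rescue and KO (0.0456% and 0.0521%).

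**Figure D5:**
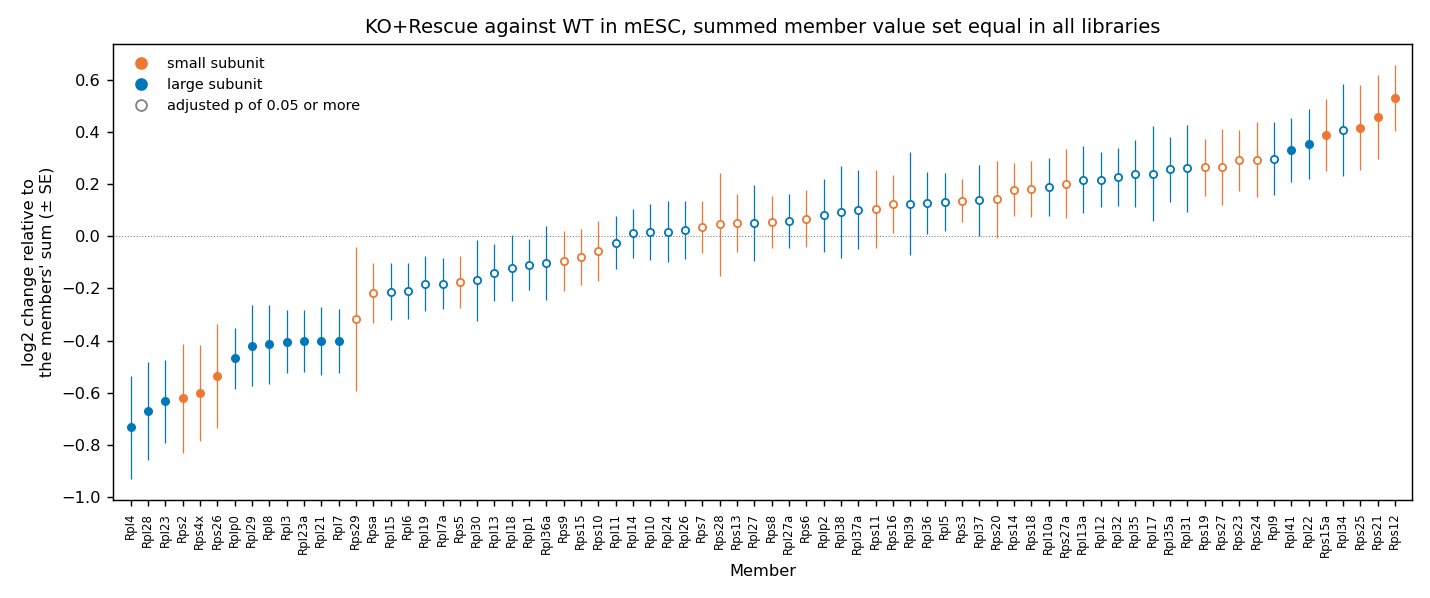
log2 change of 74 of the genes between KO+Rescue and WT in mESC with the summed member value set equal in all libraries, ordered by size. Points are fitted changes, bars their SE, and filled points have an adjusted p under 0.05. Rps12 is at the right end at 0.53 and Rpl4 at the left end at -0.73, with 6 filled points above 0 and 13 below.

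On the same relative scale, the stage left its own small mark. Rps14, a protein of the platform where the messenger RNA leaves, was higher in WT and in KO+Rescue, at 0.39 and 0.33. Rpl37 was lower in KO+Rescue, at -0.45 (adjusted p = 0.0186, limma). In all, 1, 2 and 4 members were higher and 1, 2 and 2 lower in WT, KO and KO+Rescue. Of all tested genes 21.9%, 33.9% and 33.2% were higher and 9.94%, 9.63% and 9.94% lower, shares above those of the members.

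Counts per gene also differ by length, and levels between genes are compared per kilobase of coding sequence. Rpl41 was highest at 36821 CPM per kilobase, a value raised by a coding sequence far shorter than its messenger, followed by Rps12 at 13143 and Rps14 at 10511. Rpl29 was lowest at 1471, with Rpl34 at 1951 and Rpl4 at 2029. In plain normalised counts, Rps3, Rps12 and Rps14 were the largest of the small subunit with means of 358543, 278591 and 248492 over the 12 libraries. Rpl13a, Rplp0 and Rpl5 were the largest of the large subunit with 336426, 324543 and 227330. The smallest were Rps29, Rps28 and Rps26 at 19781, 26631 and 38332, and Rpl39, Rpl38 and Rpl36a at 25558, 26448 and 34977. The order varied by group. Rps3 was the highest and Rps29 the lowest of the small subunit in 6 of 6 groups, Rps12 was among its first 3 in 5, and Rplp0 and Rpl13a were each the highest of the large subunit in 3. Ribosomal protein genes have many processed copies in the genome, and reads shared with them may be lost or split, so levels across members are uncertain. The 12 rows named as ribosomal protein pseudogenes held at most 0.0620% of a library's reads.

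The rest of the pathway was described from lists drawn up with earlier results known. Of 12 ribosomal protein genes outside the symbol rule, 5 rose and 1 fell between WT and KO+Rescue in mESC (9.15% and 9.04% of all tested genes), with Fau, which encodes a ubiquitin-like protein fused to a small-subunit protein, up by 0.84 (adjusted p = 0.0305, limma). The 1 that fell was Rpl10l, a copy of the X-linked Rpl10 that shares sequence with it. Its normalised counts in mESC were 7294 and 10185 for WT, 3493 and 3964 for KO, and 4480 and 5912 for KO+Rescue. It fell also between WT and KO, by 1.21 (adjusted p = 0.00225, limma). On the deposited scale its fitted change there had the opposite sign to all 76 members. Day 2 values were 1143 and 1566 for WT, 1132 and 1140 for KO, and 1335 and 1508 for KO+Rescue, where WT and KO+Rescue overlap. Rpl39l, a copy of Rpl39, went from 1240 and 1889 in WT mESC to 168 and 298 at day 2, a change of -2.77 (adjusted p = 9.39e-06, limma), with changes of -2.95 in KO and -3.57 in KO+Rescue, beside fitted changes of -0.36, -0.49 and -0.64 for Rpl39.

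Among other genes, 16 further TOP messages (elongation and initiation factors and some RNA-binding proteins) had a median change of 0.25 between WT and KO+Rescue in mESC with 3 higher, Eef1b2, Eif3e and Eif3h. The 8 host genes of small nucleolar RNAs, whose spliced messages are also TOP RNAs, had a median of 0.96 there with 5 higher, and 1.10 at day 2 with 6 higher. Zfas1 was the foremost at day 2, with 1186 and 1406 normalised counts for WT, 1753 and 2081 for KO, and 5926 and 6738 for KO+Rescue (2.29 against WT, adjusted p = 5.28e-05, and 1.73 against KO, adjusted p = 0.00211, limma). Genes for making ribosomes were called in both directions, where 9.15% of all tested genes were higher and 9.04% lower in KO+Rescue mESC. The same shares apply to every list given here for that comparison. Of 38 assembly factors 3 were higher and 4 lower in KO+Rescue mESC (median -0.15), and of 13 RNA polymerase I genes 1 was higher and 2 lower (median -0.18). Of 21 translation factors without a TOP motif 1 was higher and 1 lower, with a median of -0.03. Of 8 genes of the p53 pathway 1 was lower, Trp53, by 0.74 (adjusted p = 0.0173, limma). Of 25 regulators of these messages 1 was higher and 4 lower, foremost Myc, an activator of ribosomal protein genes, by 0.97 (adjusted p = 0.00559, limma). At day 2, where 3.9% of all tested genes were higher and 7.2% lower, the calls for KO+Rescue against WT were 2 higher of 16 TOP messages, 2 higher of 38 assembly factors, 1 higher and 1 lower of 13 polymerase I genes, 1 higher of 21 translation factors, 1 lower of 25 regulators and 1 lower of 8 p53 pathway genes.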

How the data were processed

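RNA was measured in 12 libraries. The authors trimmed reads with Trimmomatic, aligned them with STAR to mm10, removed Y chromosome reads, counted pairs with featureCounts on RefSeq genes and divided by DESeq2 size factors (versions not given in the sources used here). The deposited values are these normalised counts, a signal. Whole reads were recovered from them (all values whole within 0.001 of a read), which gave totals, shares and count tests. Values were tested as log2(value + 1), the scale of all fold changes, with limma 3.58.1 (trend, all 12 libraries, 6 group means, 10 contrasts) for genes with a mean of at least 10, adjusted by Benjamini and Hochberg over 15341 genes, called under 0.05. edgeR 4.0.16 and DESeq2 1.42.0 ran on the recovered reads as alternatives, beside other scalings, filters and left-out libraries. Shares and ratios had exact permutation tests (scipy 1.17.1). The fits were tested on simulated data. Positions come from RefSeq (GRCm38.p6), coding lengths from GENCODE vM39 on GRCm39. No replicate block was used in the main fit. Named members were, per comparison, up to 4 called in each direction and subunit by adjusted p, those with the largest and smallest fitted change, the 3 highest and 3 lowest by mean, and those of the role lists. The slope groups and the members called relative to the sum were named after their values were seen. The members and all lists were chosen with earlier results of these data known. Results for some members are not reported here.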

Additional observations from a re-analysis of the deposited data

Results flagged for a closer look

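Among the members and the ribosome-related lists, Myc was the gene whose KO effect differed between the stages by a test of that difference on the deposited scale. Myc was at 2563 and 1789 normalised counts in WT mESC libraries A and B and at 961 and 874 in KO mESC, a change of -1.22 ± 0.17 (SE, adjusted p = 0.000951, limma). At day 2 it was at 1371 and 1159 in WT and 1336 and 1240 in KO, a change of 0.03 ± 0.17 (adjusted p = 0.949). The interaction was 1.25 ± 0.24 (adjusted p = 0.0237, limma). With libraries scaled to equal totals the Myc interaction had an adjusted p of 0.0842 (limma). Rpl10l passed on that scale (1.08, adjusted p = 0.0398, limma) and not on the deposited one (adjusted p = 0.124, limma). None of the 76 members had an interaction past the threshold.

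The same test passed for 3 cell type markers. Dppa3, a marker of naive pluripotency, was at 1406 and 2129 normalised counts in WT mESC and 2240 and 2578 in KO mESC, and at 1122 and 1509 in WT and 262 and 326 in KO at day 2. Its interaction was -2.62 ± 0.30 (SE, adjusted p = 0.0018, limma). Pax6, a neural marker, was at 53.3 and 70.2 in WT mESC, 37.0 and 33.7 in KO mESC, 56.3 and 47.8 in WT at day 2 and 118 and 182 in KO at day 2, with an interaction of 2.26 ± 0.45 (adjusted p = 0.0311, limma). Thy1, listed as a fibroblast marker, was at 362 and 316, 118 and 111, 746 and 721, and 1108 and 941 in the same order, with an interaction of 2.04 ± 0.28 (adjusted p = 0.00329, limma). With equal library totals the adjusted p was 0.00067, 0.0486 and 0.0114 for Dppa3, Pax6 and Thy1.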

How the results depend on the processing

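Scaling, tool and single libraries moved most counts of called members, and the cause was not tested except where the setting itself gives it (fewer libraries). With each gene weighted equally, the mean log2 level was 0.476 higher in KO than in WT (exact permutation p = 0.114) and 0.711 higher in KO+Rescue (exact p = 0.0571), and small minus large subunit differed by 0.0589 (exact p = 0.0571). DESeq2 called 22 members for KO against WT in mESC, 20 for KO+Rescue against WT at day 2, and 31 and 46 for stage in KO and KO+Rescue, and edgeR 14 and 28 for KO+Rescue against WT at day 2 and for stage in KO. Without a filter on low values the counts were 8 and 0 for KO+Rescue against WT in mESC and at day 2, and 0, 3 and 12 for stage in WT, KO and KO+Rescue. Equal totals gave 13 at day 2 and, for stage, 1 (higher), 5 and 11. Totals without members and mitochondrial genes gave 13, 1 (higher), 3 and 11. TMM gave 8 and a pseudocount of 0.5 gave 1 at day 2. With the summed member value equal, KO+Rescue against WT gave 21 (7 higher, 14 lower) and 4 (1 higher, 3 lower), and stage 4 in KO and 6 (4 higher, 2 lower) in KO+Rescue. There Rps15, Rpl30, Rps10, Rpl11, Rps9, Rpl18, Rpl13, Rplp1 and Rpl36a had changes of -0.078, -0.17, -0.055, -0.025, -0.094, -0.12, -0.14, -0.11 and -0.10 (log2). Fitting only the 2 groups compared gave 1 for KO+Rescue against KO at day 2, 0 and 0 for KO+Rescue against WT, and 1, 57 and 17 for stage.

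The labels do not say that the letters A and B pair libraries across genotypes, and deviations correlated above 0.1 in 6 of 15 pairs of groups (-0.048 to 0.413). As a replicate block they gave 57 and 10 calls for KO against WT in mESC and at day 2 (23.8% and 10.6% of all tested genes), 67 and 50 for KO+Rescue against WT (30.3% and 23.3%), and 20, 59 and 62 for stage (59%, 65.8% and 64.6%). Permuted within the letter, the differences of 3.26, 5.29, 0.0374 and 0.0720 against WT each had an exact block permutation p of 0.0556, the smallest this scheme allows. Averaged over the stages by line and letter, the same differences had an exact permutation p of 0.333, and a replicate block of line and letter gave 26, 63 and 66 calls for stage. Both were chosen after seeing the data.

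Leaving out one library, the share differed by -2.59 to -0.506 points for stage, 2.54 to 3.81 for KO against WT, 4.06 to 5.99 for KO+Rescue against WT and 0.801 to 2.76 for KO+Rescue against KO. The ratio differed by -0.0151 to 0.00660, 0.0291 to 0.0422, 0.0652 to 0.0776 and 0.0293 to 0.0429. Called members ranged from 0 to 21 and 0 to 1 for KO against WT in mESC and at day 2, from 0 to 62 and 0 to 34 for KO+Rescue against WT, and from 0 to 16, 0 to 25 and 3 to 54 for stage in WT, KO and KO+Rescue, and were 0 throughout for KO+Rescue against KO and the interaction. With 2 libraries a group, each lone library was assumed to vary like the other groups.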
